A study of Homo sapiens with 9 samples.

Results

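Heterogeneous nuclear ribonucleoproteins (hnRNPs) and serine/arginine-rich (SR) proteins were examined at the mRNA level in colon cancer cells expressing either isoform of tazarotene-induced gene 1. Their genes were taken by symbol from the array annotation. Every gene whose symbol begins with HNRNP or SRSF (or the older HNRP or SFRS) was included, together with TRA2A, TRA2B, PTBP1 and PTBP2. This gave 35 of the 19775 genes named on the array, measured by 132 of its 54675 probe sets. 34 of the 35 genes had a brightest probe set reaching its array's median in 2 or more replicates of some group, and these 34 were tested. The gene not tested was SRSF12, an SR protein gene whose brightest probe set read between 8.75 and 71.3 intensity units. Another 19 probe sets list one of these symbols beside a second gene and were not assigned. SRSF2, SRSF9, HNRNPH2 and several loci resembling HNRNPA1 or HNRNPC are therefore not described. PTBP1, HNRNPA1, HNRNPA3, HNRNPA3P1 and HNRNPUL2 also lost probe sets in this way and are described from their assigned probe sets only. The brightest probe set of a gene is the brightest of those assigned to it. HNRNPA3P1, a pseudogene, and HNRNPD-DT, a non-coding transcript divergent from HNRNPD, carry the prefix but encode no hnRNP protein.

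HCT116, an established human colon cancer line, carried the GeneSwitch system, in which mifepristone (MFP) activates a regulatory protein made from pSwitch and thereby a gene cloned behind its promoter in pGene/V5. Control cells held pGene/V5 without an insert, TIG1A cells held isoform A and TIG1B cells held isoform B of tazarotene-induced gene 1 (symbol RARRES1), and all 3 lines, controls included, received 5 nM MFP for 24 h. Each line was 1 stable clone, so that an effect of an isoform and a difference between clones cannot be told apart. RNA of 3 independent samples per line was hybridised to HG-U133 Plus 2.0 arrays, 9 in all.

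The deposited intensities were scaled to the same mean on every array, and array medians were 59.9 to 73.9. The brightest RARRES1 probe set followed the labels, with 4.8 to 58 intensity units in control cells and far higher readings in both other lines (TIG1A 41198 to 56404, TIG1B 18603 to 27085). Of 7 epithelial markers, 6 exceeded the array median on all arrays, as did 1 of 3 endothelial markers and no fibroblast or leukocyte marker. Over 29977 probe sets, 858 rose and 960 fell in TIG1A cells, and 210 rose and 325 fell in TIG1B cells (limma, Benjamini-Hochberg adjusted p under 0.05). With arrays centred on their medians these splits became 1274 and 357, and 251 and 105. In RNA of a whole culture, fewer cells expressing a gene and less of its RNA per cell cannot be told apart.

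hnRNPs coat nascent transcripts in the nucleus and often repress the use of nearby exons, whereas SR proteins bind exonic enhancers through RNA recognition motifs and recruit the splicing machinery through their arginine- and serine-rich tails. The balance between both families sets much of alternative splicing, and many members also act in mRNA export, stability and translation. Several are abundant in proliferating epithelial cells, and many of their genes produce transcripts that are spliced into unproductive forms, through which the proteins limit their own level. A probe set reads only the part of a transcript that its probes cover.

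1 array stood apart most for these genes, as the lowest of its group. Control replicate 1 gave the lowest of the 3 control intensities for 29 of the 34 genes (85.3%), while over all 13353 genes with a brightest probe set kept it was lowest for 34.3%. It was the highest control array for 3 of the 34 genes and for 41.1% of all genes. No array of TIG1A or TIG1B cells was the lowest of its group for more than 14 of the 34 genes. TIG1B replicate 1 was the highest of its group for 20 of the 34 genes, with 38.9% over all genes. SRSF1, the founding SR protein, was an example, with its probe set 201742_x_at at 3857 in control replicate 1 against 10031 and 13156 in the other control replicates. The part of this array in the results was not tested beyond leaving it out, and values without it are given beside each comparison. Where it was the lowest control array, as for 29 of the 34 genes, leaving it out raises the control mean. Lower values and calls gained in that way are therefore not further evidence of a fall.

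In TIG1A cells, HNRNPL was the single gene of 34 to pass the test on its brightest probe set, and it fell. None rose. This is 2.94% of the genes, with 7.01% of all 13353 genes called (3.39% higher and 3.62% lower). The log2 fold changes ranged from -1.29 to 0.32, and 30 of 34 lay within 0.5 of 0. 28 of 34 (82.4%) were below 0, as were 52.2% of all genes, and the median was -0.25 against -0.03 over all genes. 7 genes, all with lower values in TIG1A cells, had an unadjusted p under 0.05 (20.6%, with 27.7% over all genes and 14.5% in this direction). For 9 genes the TIG1A and control arrays did not overlap, lower in TIG1A cells each time (26.5%, with 34.2% over all genes and 17.9% in this direction). Centring arrays on their medians moved the median of all genes to 0.14 and that of the 34 genes to -0.09. Without control replicate 1, the median of the 34 genes was -0.39 and 5 genes were called, namely HNRNPL, HNRNPU, HNRNPAB, HNRNPUL1 and HNRNPH3, each lower. Calls over all probe sets were then 3009 of 29215, in place of 1818 of 29977.

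In TIG1B cells, HNRNPL again was the single gene called on its brightest probe set, and it fell (2.94% of the 34 genes, with 1.84% of all genes called, 0.637% higher and 1.21% lower). The log2 fold changes ranged from -0.91 to 0.66, with a median of -0.08 against -0.01 over all genes, and 25 of 34 (73.5%) lay below 0, as did 51.1% of all genes. The median of the 34 genes became 0.07 with arrays centred on their medians, so its sign depended on the scaling. 5 genes had an unadjusted p under 0.05, 1 higher and 4 lower (14.7%, with 19.9% over all genes and 11.2% lower). Intensities did not overlap with those of control cells for 8 genes, 5 lower and 3 higher (23.5%, with 26.8% over all genes and 14.6% lower). Without control replicate 1, HNRNPL, HNRNPUL1 and TRA2A were called, all lower, and the median was -0.24. Calls over all probe sets were then 1224 of 29215, in place of 535 of 29977. No gene was called when control replicate 2 or 3, TIG1A replicate 2, or any 1 of the TIG1B replicates was left out. Calls over all probe sets fell as well under these omissions, to between 77 and 248. Both lines were compared with the same 3 control arrays.

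**Figure D1:**
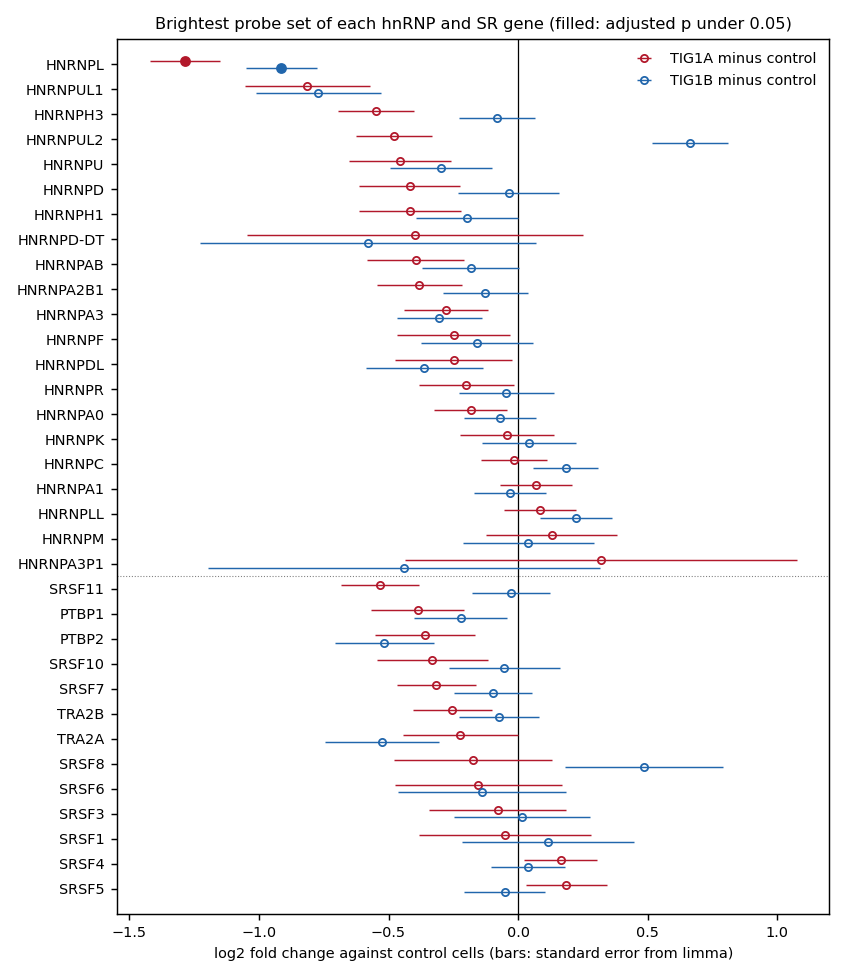
The log2 fold change against control cells (x axis) of the brightest probe set of 34 genes (y axis; hnRNP genes above the dotted line, SR, TRA2 and PTBP genes below) for TIG1A (red) and TIG1B cells (blue), with limma standard errors as bars and filled points where the adjusted p was under 0.05. HNRNPL lies farthest left in both lines, at -1.29 and -0.91, and HNRNPUL2 lies on opposite sides of 0.

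**Figure D2:**
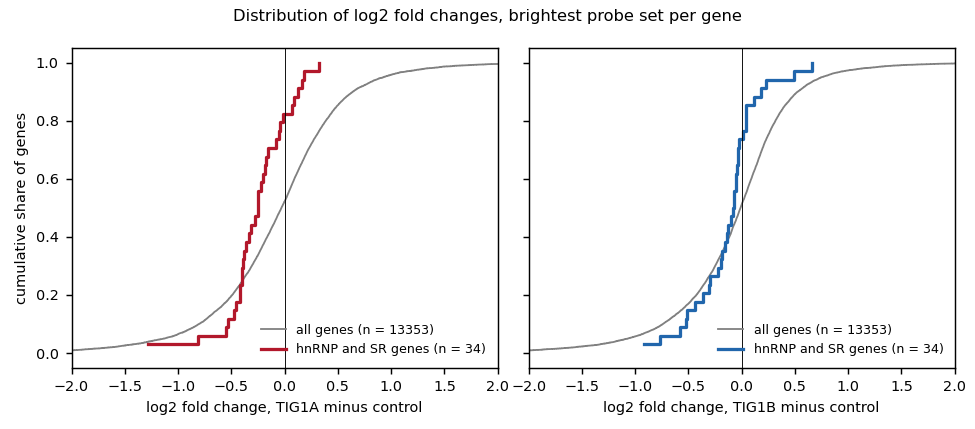
Cumulative share of genes (y axis) by log2 fold change (x axis, shown from -2 to 2) for 34 hnRNP and SR genes (coloured) and all 13353 genes (grey), TIG1A on the left and TIG1B on the right. The coloured TIG1A curve crosses 0 at a higher share (82.4%) than the grey curve (52.2%), and few genes of the families lie beyond 0.5 in either direction.

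HNRNPL binds CA-rich RNA and regulates inclusion of exons near such repeats. Its brightest probe set (35201_at) read 13090.3, 14156 and 15093 on control arrays, 6272, 6019.9 and 5110.5 on TIG1A arrays, and 7083, 7537 and 7835 on TIG1B arrays. Every array of both TIG1 lines lay below every control array, and TIG1A lay below TIG1B without overlap. Mean intensity was 14113 ± 1002 (SD, n = 3) for control, 5801 ± 611 for TIG1A and 7485 ± 379 for TIG1B cells. HNRNPL thus fell 2.44-fold in TIG1A cells (log2 fold change -1.29, SE 0.14, limma adjusted p = 0.00798) and 1.88-fold in TIG1B cells (-0.91, SE 0.14, adjusted p = 0.0293). The difference between both lines was -0.37 (TIG1A minus TIG1B, SE 0.14, adjusted p = 0.305).

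The other HNRNPL probe set (202072_at) gave the same order. It read 8195, 9003 and 9602 on control arrays, 3254, 3236 and 3012 on TIG1A arrays, and 4123, 4318 and 4780.3 on TIG1B arrays. No group overlapped another. The log2 fold changes were -1.49 (SE 0.13, limma adjusted p = 0.0062) in TIG1A cells and -1.02 (SE 0.13, adjusted p = 0.0179) in TIG1B cells. HNRNPL was the only gene of the families whose kept probe sets were all called in either line. HNRNPL was also among the genes the study selected from these arrays, so that its direction here is not independent evidence. In TIG1A cells both probe sets remained called whichever array was left out. In TIG1B cells 35201_at lost its call without control replicate 2 or 3 (adjusted p = 0.081 and 0.0597), TIG1A replicate 2 (0.0619), or TIG1B replicate 1, 2 or 3 (0.0838, 0.0944 and 0.0755), and 202072_at without control replicate 2 (0.0622) or TIG1B replicate 1 or 2 (0.0616 and 0.0707).

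HNRNPLL, the paralogue of HNRNPL known from CD45 exon skipping in lymphocytes, did not pass the test. Its brightest probe set read 1972 to 2201 on control arrays, 2004 to 2499 on TIG1A arrays and 2233 to 2573 on TIG1B arrays. The log2 fold changes were 0.08 (SE 0.14, limma adjusted p = 0.746) and 0.22 (SE 0.14, adjusted p = 0.434).

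HNRNPUL1 and HNRNPUL2 resemble HNRNPU and have been tied to transcription and to the repair of DNA breaks. The HNRNPUL1 probe set 209675_s_at read 1263, 1343 and 1605 on control arrays, 651, 504.2 and 491.3 on TIG1A arrays, and 607.5, 683.2 and 753.1 on TIG1B arrays. Both TIG1 lines lay wholly below control and overlapped each other. This signal fell 2.57-fold in TIG1A cells (log2 fold change -1.36, SE 0.17, limma adjusted p = 0.011) and 2.06-fold in TIG1B cells (-1.04, SE 0.17, adjusted p = 0.0354). The TIG1B call was lost, with adjusted p between 0.0599 and 0.111, without any array other than control replicate 1 or TIG1A replicate 1. The brighter HNRNPUL1 probe set (208713_at) read 1920.5, 3429.7 and 3270.7 on control arrays, 1379 to 1818 on TIG1A arrays and 1475 to 1725 on TIG1B arrays. Its groups did not overlap with control either, but control replicate 1 lay close to the TIG1 arrays. Its log2 fold changes of -0.81 (SE 0.24, adjusted p = 0.0865) and -0.77 (SE 0.24, adjusted p = 0.148) did not pass, and became -1.08 (adjusted p = 0.0156) and -1.04 (adjusted p = 0.0323) without control replicate 1.

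The brightest HNRNPUL2 probe set (225405_at) lay on opposite sides of control in the lines. It read 1033, 1156 and 1035 on control arrays, 698, 761 and 862 on TIG1A arrays, and 1519.9, 1701 and 1899 on TIG1B arrays. The 3 groups did not overlap, with TIG1A lowest and TIG1B highest. Neither difference from control passed the test (TIG1A -0.48, SE 0.15, limma adjusted p = 0.0951, and TIG1B 0.66, SE 0.15, adjusted p = 0.0712). The direct comparison did, with TIG1A 2.21-fold below TIG1B (log2 difference -1.14, SE 0.15, adjusted p = 0.0302), the only 1 of 34 genes (2.94%, with 0.584% over all genes and 0.225% in this direction). 9 of the 34 genes did not overlap between the TIG1 lines (26.5%, with 28.4% over all genes and 14.2% lower in TIG1A cells), 8 of them lower in TIG1A cells. The call was lost without control replicate 2 (adjusted p = 0.0509) and without any 1 of the TIG1A or TIG1B arrays (0.0852 to 0.123). The dimmer HNRNPUL2 probe set (222264_at) read 158 to 291 on control arrays, 199 to 633 on TIG1A arrays and 236 to 616 on TIG1B arrays, with all groups overlapping and a difference of -0.14 (SE 0.53, adjusted p = 0.941) between the lines.

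**Figure D3:**
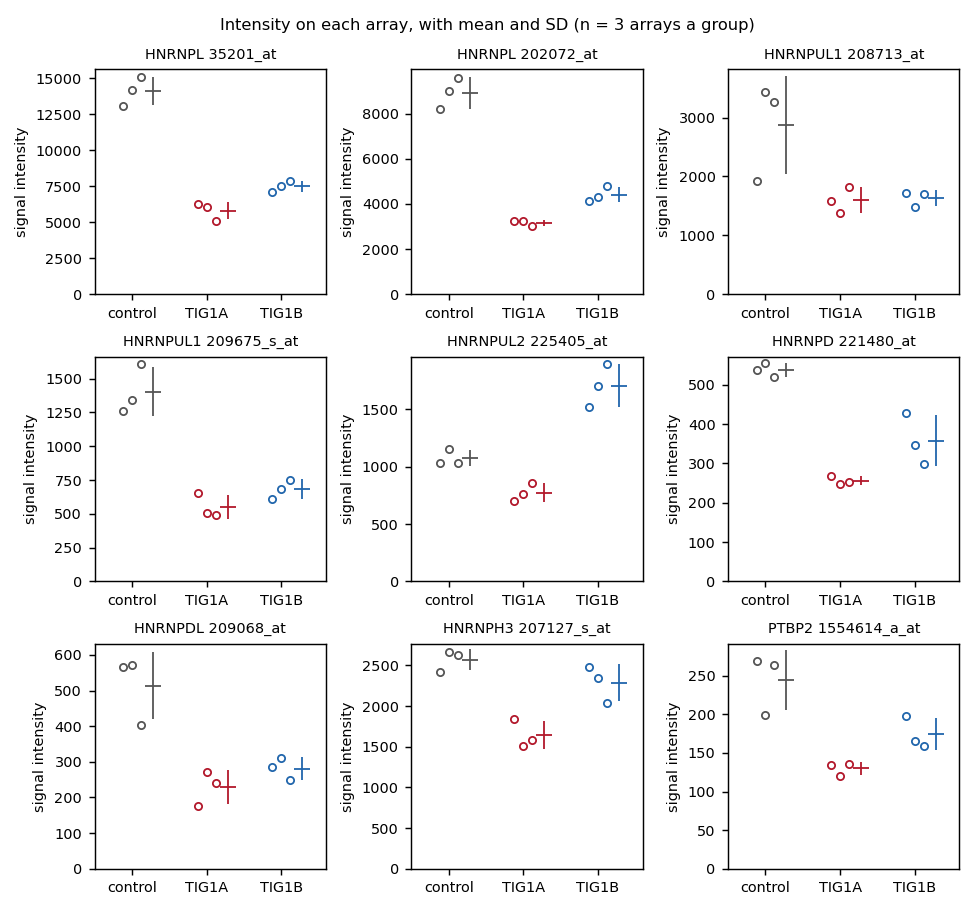
Signal intensity (y axes, linear, from 0) of 9 probe sets on each array of control, TIG1A and TIG1B cells (circles), with the mean and SD of 3 arrays beside them. HNRNPL arrays of both TIG1 lines lie below control in both panels, HNRNPUL2 arrays lie below control in TIG1A and above it in TIG1B cells, and control replicate 1 is the low control point of HNRNPUL1 208713_at.

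Promoters of HNRNPL and HNRNPUL1, each called lower in both lines on at least 1 probe set, of HNRNPUL2, which differed between the lines, and of HNRNPLL, the paralogue that did not pass, are shown for comparison. Each runs from 250 bases before to 50 bases after the outermost RefSeq start of the gene (GRCh38.p14, chr19:38852298-38852597 minus strand, chr19:41262307-41262606 plus strand, chr11:62727408-62727707 minus strand and chr2:38602879-38603178 minus strand). Capitals mark matches on either strand to 7 motifs common in promoters, none overlapping another here. They were GGGCGG, the GC box read by SP1-type factors, the CCAAT box of NF-Y, and CCGGAAG, a core site of ETS factors. The remaining motifs were AAGATGGCG for YY1, GCATGCGC for NRF1, CACGTG, known as the E-box, and finally TATAAA, the TATA box.
HNRNPL: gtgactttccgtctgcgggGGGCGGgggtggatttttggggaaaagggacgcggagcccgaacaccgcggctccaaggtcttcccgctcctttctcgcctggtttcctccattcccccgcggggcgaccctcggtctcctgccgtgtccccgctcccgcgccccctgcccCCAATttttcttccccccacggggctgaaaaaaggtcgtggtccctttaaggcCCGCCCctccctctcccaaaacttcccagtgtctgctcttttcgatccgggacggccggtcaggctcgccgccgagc
HNRNPUL1: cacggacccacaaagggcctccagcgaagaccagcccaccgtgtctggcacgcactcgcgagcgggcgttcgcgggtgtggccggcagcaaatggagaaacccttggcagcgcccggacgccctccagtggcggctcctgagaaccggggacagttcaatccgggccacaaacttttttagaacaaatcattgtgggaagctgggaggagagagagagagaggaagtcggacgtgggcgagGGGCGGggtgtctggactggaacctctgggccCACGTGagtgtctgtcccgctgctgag
HNRNPUL2: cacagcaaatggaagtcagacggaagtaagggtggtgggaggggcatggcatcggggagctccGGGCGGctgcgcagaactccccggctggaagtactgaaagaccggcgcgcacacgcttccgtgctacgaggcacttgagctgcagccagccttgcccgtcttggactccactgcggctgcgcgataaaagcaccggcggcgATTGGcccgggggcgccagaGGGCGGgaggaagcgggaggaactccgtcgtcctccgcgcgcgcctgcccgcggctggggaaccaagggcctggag
HNRNPLL: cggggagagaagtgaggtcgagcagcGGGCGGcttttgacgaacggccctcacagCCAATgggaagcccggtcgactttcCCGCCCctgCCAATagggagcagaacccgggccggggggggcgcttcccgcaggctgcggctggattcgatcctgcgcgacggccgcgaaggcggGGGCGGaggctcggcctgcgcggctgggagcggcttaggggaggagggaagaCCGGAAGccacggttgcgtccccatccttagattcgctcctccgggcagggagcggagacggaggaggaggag
The HNRNPL and HNRNPUL2 windows each held 2 GC boxes and 1 CCAAT box, the HNRNPUL1 window held 1 GC box and 1 E-box, and the HNRNPLL window held 3 GC boxes, 2 CCAAT boxes and 1 ETS match. A GC box is thus present in all 4 windows, whatever the direction of the transcript. Promoters were found for 32 of the 35 genes. A GC box occurred in 22 of them (68.8%) and in 44.5% of 27305 promoters of the same length, a CCAAT box in 16 (50%, against 35.7%), an ETS match in 5 (15.6%, against 10.6%), an E-box in 6 (18.8%, against 7.4%) and TATA in 4 (12.5%, against 12%). The NRF1 letters were in 1 window (3.12%, against 3.29%) and the YY1 letters in none (1.82% of all promoters). The median GC content was 65.7% in the 32 windows and 58.3% over all promoters, and a match is a description of letters only.

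HNRNPL and HNRNPUL1 lie on the long arm of chromosome 19, with 45 measured genes between them. The median log2 fold change of these 45 genes was -0.39 in TIG1A cells, with 36 below 0, 8 called lower and 1 called higher. In TIG1B cells it was -0.22, with 34 below 0 and 1 called lower. Among the 24 genes nearest to HNRNPL, 12 on each side, the medians were -0.40 and -0.27, and 6 and 2 of them were called lower. HNRNPL itself lay below both medians, at -1.29 and -0.91. PTBP1, on the short arm of the same chromosome, was at -0.39 in TIG1A and -0.22 in TIG1B cells with neighbours at -0.39 and -0.26. HNRNPM, also on chromosome 19, was at 0.13 and 0.04, with neighbours at -0.01 and 0.25.

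The neighbours of HNRNPUL2, SRSF8 and TRA2A are given as further cases, chosen after their values were seen. HNRNPUL2, on chromosome 11, was at -0.48 in TIG1A and 0.66 in TIG1B cells and had neighbours at -0.21 in TIG1A and 0.34 in TIG1B cells. SRSF8, elsewhere on chromosome 11, was at 0.49 in TIG1B cells with neighbours at 0.41, of which 1 of 24 was below 0 and 3 were called higher. The other kept SRSF8 probe sets differed in sign there, at 0.42 (213152_s_at), -0.52 (228760_at) and -0.29 (238929_at). TRA2A, on chromosome 7, was at -0.52 in TIG1B cells with neighbours at -0.47, of which 19 were below 0 and 2 called lower. The other kept TRA2A probe sets were dim and stood at -0.32 (229574_at, SE 1.1) and 0.8 (213593_s_at, SE 1.4) there. The part of the chromosomal position in these values was not tested.

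**Figure D4:**
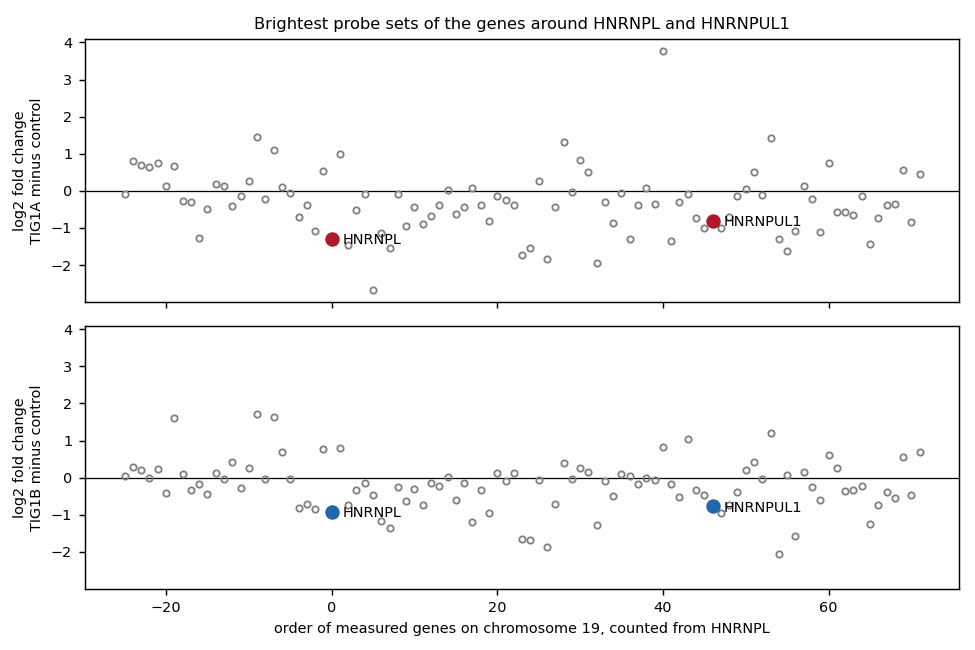
The log2 fold change against control cells (y axes) of measured genes in their order on chromosome 19 (x axis, counted from HNRNPL at 0), TIG1A above and TIG1B below, with HNRNPL and HNRNPUL1 as filled points. Most of the 45 genes between them lie below 0 (36 in TIG1A and 34 in TIG1B cells), by varying amounts.

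HNRNPD (AUF1) binds AU-rich elements and directs the decay of short-lived mRNAs, and HNRNPDL is its close relative. In TIG1A cells each was called on 1 probe set, dimmer than its brightest, and was not called on its brightest. HNRNPD 221480_at read 538.3, 555.6 and 520.03 on control arrays, 268, 247 and 252 on TIG1A arrays, and 428, 346 and 299.6 on TIG1B arrays. Neither TIG1 line overlapped control. The fall was 2.10-fold in TIG1A cells (log2 fold change -1.07, SE 0.16, limma adjusted p = 0.0146), and TIG1B cells stood at -0.60 (SE 0.16, adjusted p = 0.0991). The TIG1A call was lost without control replicate 2 (adjusted p = 0.0524) or TIG1A replicate 2 or 3 (0.0558 and 0.0538).

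The brightest HNRNPD probe set (200073_s_at) read 10158 to 13911 on control arrays, 7771 to 10918 on TIG1A arrays and 10709 to 13774 on TIG1B arrays. These ranges overlapped, and the log2 fold changes were -0.42 (SE 0.20, limma adjusted p = 0.23) and -0.04 (SE 0.20, adjusted p = 0.941). The 6 kept HNRNPD probe sets spanned -1.07 to 0.14 in TIG1A cells.

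HNRNPDL 209068_at read 567, 571 and 404 on control arrays, 175, 271 and 242 on TIG1A arrays, and 285, 310 and 248 on TIG1B arrays. Neither line overlapped control. HNRNPDL fell 2.25-fold in TIG1A cells (log2 fold change -1.17, SE 0.22, limma adjusted p = 0.028), while the TIG1B value was -0.86 (SE 0.22, adjusted p = 0.097). The TIG1A call was lost without control replicate 2 (adjusted p = 0.0873) or without TIG1A replicate 1, 2 or 3 (0.0588, 0.0563 and 0.0761). Its brightest probe set (201993_x_at), at 6330 to 9946 in control cells, stood at -0.25 and -0.36, neither passing. HNRNPD, HNRNPDL and the divergent transcript HNRNPD-DT lie close together on chromosome 4, where the neighbours of HNRNPD had medians of -0.18 and -0.05.

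HNRNPH1, HNRNPH3 and HNRNPF bind G-rich tracts around exons. HNRNPH3 207127_s_at read 2423, 2669.5 and 2624 on control arrays, 1841, 1509.6 and 1584 on TIG1A arrays, and 2480.2, 2345 and 2036 on TIG1B arrays. TIG1A lay wholly below control, and TIG1B overlapped it. The fall in TIG1A cells was 1.57-fold (log2 fold change -0.65, SE 0.14, limma adjusted p = 0.0406), and TIG1B stood at -0.17 (SE 0.14, adjusted p = 0.553). The call was lost without control replicate 2 or 3, any TIG1A replicate, or TIG1B replicate 2 or 3 (adjusted p = 0.056 to 0.125). The brightest HNRNPH3 probe set (208990_s_at) did not overlap control either, at 1975 to 2476 in TIG1A cells and 3053 to 3624 in control cells, and stood at -0.55 (SE 0.15, adjusted p = 0.0665). The 4 kept HNRNPH3 probe sets lay between -0.65 and -0.55 in TIG1A cells.

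HNRNPH1 gave opposite readings. Its brightest probe set (201031_s_at) read 14930.3, 21382 and 21726 on control arrays, 12762, 16393 and 13917 on TIG1A arrays, and 14391, 17901 and 17844 on TIG1B arrays. These ranges overlapped, with log2 fold changes of -0.42 (SE 0.20, limma adjusted p = 0.235) and -0.20 (SE 0.20, adjusted p = 0.632). Another HNRNPH1 probe set (213619_at) read 2501 to 2849 on control arrays, 3704 to 5694 on TIG1A arrays and 3878 to 4334 on TIG1B arrays. It lay above control on every array of both lines, at 0.67 (SE 0.19, adjusted p = 0.075) and 0.62 (SE 0.19, adjusted p = 0.14), and did not pass. HNRNPF stood at -0.25 and -0.16.

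The A/B-type hnRNPs, abundant shuttling proteins that bind UAG-containing RNA, were not called in either line. HNRNPA2B1 (205292_s_at) read 18789, 24799 and 23596 on control arrays, 19611, 15979.8 and 15869 on TIG1A arrays, and 22225, 19765 and 19223 on TIG1B arrays. The groups overlapped through control replicate 1, and the log2 fold changes were -0.38 (SE 0.16, limma adjusted p = 0.196) and -0.13 (SE 0.16, adjusted p = 0.717). Another HNRNPA2B1 probe set (225932_s_at) did not overlap control in either line, at -0.42 (adjusted p = 0.133) and -0.63 (adjusted p = 0.0832). HNRNPAB (201277_s_at) read 15838, 23271 and 24925 on control arrays, 16555, 15771 and 15450.2 on TIG1A arrays, and 19957, 17578 and 17911 on TIG1B arrays. Apart from control replicate 1, its control arrays lay above those of both lines, and it stood at -0.40 (SE 0.19, adjusted p = 0.235) and -0.18 (SE 0.19, adjusted p = 0.642). HNRNPA1 stood at 0.07 and -0.03, HNRNPA3 at -0.28 and -0.30, and HNRNPA0 at -0.18 and -0.07.

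Of the remaining hnRNPs, HNRNPU, a chromatin-attached scaffold protein, was at -0.46 and -0.30, and at -0.68 (adjusted p = 0.0239) in TIG1A cells without control replicate 1. HNRNPC, which binds uridine tracts, was at -0.02 and 0.18. HNRNPK, which binds cytosine-rich RNA, was at -0.04 and 0.04. HNRNPM was at 0.13 and 0.04, and HNRNPR at -0.20 and -0.05. None of these passed on any kept probe set in the fit over all 9 arrays. HNRNPA3P1 and HNRNPD-DT were dim, at mean control intensities of 68 and 134, with standard errors above those of every other brightest probe set.

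No SR protein gene passed the test in either line on any kept probe set. SRSF11, an SR-related protein found at early spliceosomes, came closest on the brightest probe sets. Its brightest probe set (200686_s_at) read 12034, 14613 and 12926 on control arrays, 7921 to 10506 on TIG1A arrays, and 12633 to 13441 on TIG1B arrays. TIG1A lay below control without overlap, at -0.53 (SE 0.15, limma adjusted p = 0.0781), whereas TIG1B overlapped control at -0.03 (SE 0.15, adjusted p = 0.94). The difference between the lines was -0.50 (SE 0.15, adjusted p = 0.225). Over all kept probe sets the smallest adjusted p was that of SRSF10, a repressor of splicing when dephosphorylated, on a dimmer probe set (225348_at). It read 400.2, 597.4 and 333.4 on control arrays, 205.3, 243.1 and 248.9 on TIG1A arrays, and 449, 404.5 and 371.8 on TIG1B arrays. TIG1A again lay below control without overlap, at -0.89 (SE 0.22, limma adjusted p = 0.058), and TIG1B overlapped control at -0.08 (SE 0.22, adjusted p = 0.88). SRSF8, which resembles SRSF2, read 2369 to 3933 on control arrays, 2250 to 3545 on TIG1A arrays and 3518 to 6495 on TIG1B arrays on its brightest probe set (214789_x_at). These ranges overlapped, and its log2 fold changes were -0.17 (adjusted p = 0.758) and 0.49 (adjusted p = 0.436).

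The other SR protein genes lay within 0.5 of control on their brightest probe sets. SRSF1, which acts on exonic enhancers and in mRNA export, was at -0.05 and 0.11, and SRSF3, which also promotes export, at -0.08 and 0.02. SRSF4, SRSF5 and SRSF6, the SR proteins of larger mass, were at 0.16, 0.19 and -0.15 in TIG1A and at 0.04, -0.05 and -0.14 in TIG1B cells. SRSF7 was at -0.32 and -0.10. SRSF10, on its brightest probe set, was at -0.33 and -0.05. Standard errors for SRSF1 and SRSF3 (0.33 and 0.26 in TIG1A cells) were wide beside the 0.14 of HNRNPL, so that smaller changes of these genes could not be resolved with 3 arrays per group.

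The transformer-2 homologues TRA2A and TRA2B activate exons with GAA-rich enhancers. TRA2A (204658_at) read 3941, 5911 and 7097 on control arrays, 4667, 5319 and 4190.5 on TIG1A arrays, and 3740.1, 3795 and 3912 on TIG1B arrays. TIG1B lay below control without overlap, by a narrow margin to control replicate 1, at -0.52 (SE 0.22, limma adjusted p = 0.26). Without that array TRA2A was at -0.76 in TIG1B cells (adjusted p = 0.0485). TRA2B was at -0.25 and -0.07.

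PTBP1 represses exons through pyrimidine tracts, and PTBP2 is its paralogue, best known from neurons. The brightest assigned PTBP1 probe set stood at -0.39 and -0.22 and was not called. PTBP2 1554614_a_at read 269, 199 and 264 on control arrays, 134.9, 120.1 and 135.2 on TIG1A arrays, and 197.9, 165 and 159 on TIG1B arrays. Neither line overlapped control. PTBP2 fell 1.86-fold in TIG1A cells (log2 fold change -0.90, SE 0.17, limma adjusted p = 0.028), and TIG1B cells stood at -0.48 (SE 0.17, adjusted p = 0.187). The call was lost without control replicate 3, any TIG1A replicate, or TIG1B replicate 2 or 3 (adjusted p = 0.0509 to 0.0917). The brighter PTBP2 probe set (218683_at) read 361 to 441 on control arrays, 270.3 to 347 on TIG1A arrays and 230.1 to 349.97 on TIG1B arrays. Neither TIG1 line overlapped control, but they overlapped each other. The log2 fold changes were -0.36 (SE 0.19, limma adjusted p = 0.288) and -0.52 (SE 0.19, adjusted p = 0.211).

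Counting any kept probe set, 6 of 34 genes fell in TIG1A cells (17.6%, with 10.4% of genes called in either direction and 5.57% lower), namely HNRNPL, HNRNPUL1, HNRNPD, HNRNPDL, HNRNPH3 and PTBP2. In TIG1B cells 2 fell (5.88%, with 3.21% of genes called and 1.9% lower), HNRNPL and HNRNPUL1. No gene rose on any probe set in either line. Of the 109 kept probe sets, 7 were called in TIG1A cells (6.42%, with 6.06% over all kept probe sets), 3 in TIG1B cells (2.75%, with 1.78%) and 1 between the lines (0.917%, with 0.417%). 28 of the 34 genes had no called probe set in either line. Of the 29 genes with 2 or more kept probe sets, the log2 fold changes of 14 had 1 sign in TIG1A cells and those of 12 in TIG1B cells, and the median span within a gene was 0.50 and 0.48. The widest spans came from dim probe sets, such as HNRNPM 214918_at (5.4 to 46.3 in control and 53.7 to 81.2 in TIG1A cells) and SRSF7 211439_at (150.3 to 206 in control and 19.8 to 137 in TIG1B cells), neither of which passed (limma adjusted p = 0.173 and 0.153).

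**Figure D5:**
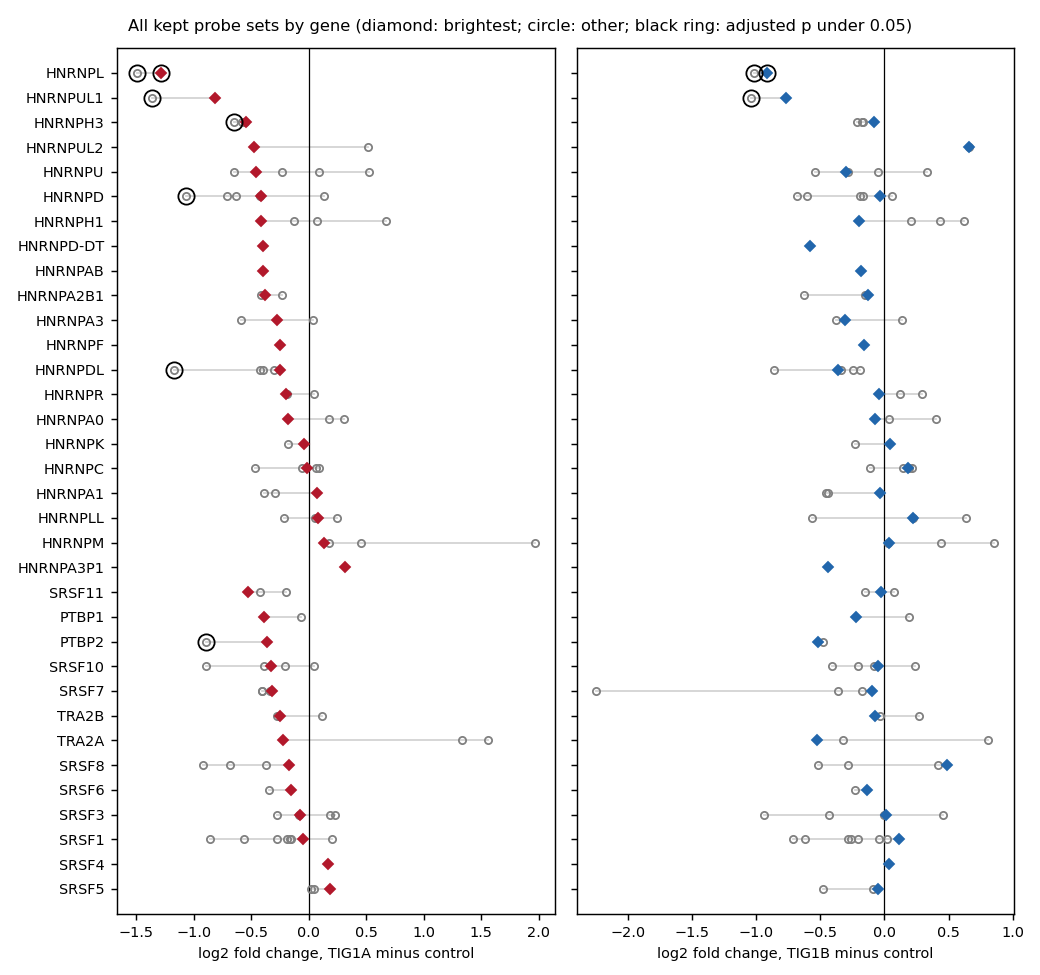
The log2 fold change against control cells (x axes) of all 109 kept probe sets by gene (y axis), TIG1A on the left and TIG1B on the right, with the brightest probe set as a diamond, others as circles and a black ring where the adjusted p was under 0.05. Rings lie left of 0 throughout, 7 in TIG1A and 3 in TIG1B cells, and only HNRNPL has a ring on each of its probe sets.

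Other splicing genes were read from lists of regulators and of core spliceosome components. Of 42 tested regulators, 27 (64.3%, with 52.2% of all genes) lay below 0 in TIG1A cells, with a median of -0.16. Among them 1 rose and 3 fell (9.52%, with 7.01% of all genes called). The gene that rose was PNN (pinin, at exon junctions and cell adhesions), at 0.83 (SE 0.12, limma adjusted p = 0.0148), and it also rose in TIG1B cells, the only regulator called there (2.38%, with 1.84% of all genes), at 0.74 (SE 0.12, adjusted p = 0.0348). Over the mean of its kept probe sets PNN was not called, at 0.34 (adjusted p = 0.171) in TIG1A and 0.49 (adjusted p = 0.117) in TIG1B cells. The TIG1A call was lost without TIG1A replicate 2 or 3 (adjusted p = 0.0544 and 0.056), and the TIG1B call without any 1 array other than control replicate 1 (0.0521 to 0.106). RALY, an hnRNP relative, fell by 0.52 on the log2 scale in TIG1A cells (adjusted p = 0.0424). PCBP1, a cytosine-tract binder like HNRNPK, fell by 0.69 (adjusted p = 0.0464), and RBM10, an exon repressor, fell by 1.03 (adjusted p = 0.0367). Of 33 core components, 25 (75.8%, with 52.2% of all genes) lay below 0 in TIG1A cells, with a median of -0.18. Those called were 1 that rose and 3 that fell (12.1%, with 7.01% of all genes). They were SF3B5 at 0.60 (adjusted p = 0.0365), SF3A1 at -0.68 (0.044) and SF3A2 at -1.11 (0.0199), all of the U2 particle, and SF1, which binds the branch point, at -1.37 (0.0299). In TIG1B cells none of the 33 was called by limma, and 5 had an unadjusted p under 0.05 (15.2%, with 19.9% over all genes). The methods' t-test gave 4 before adjustment, and 4594 of all 29977 probe sets. These counts turned on single arrays, as did those over all probe sets. The regulators called in TIG1A cells numbered 8 without control replicate 1 and 0 to 2 without any other array, and those in TIG1B cells 5 without control replicate 1, 2 without TIG1A replicate 1 and 0 without any other. The core components called in TIG1A cells numbered 9 without control replicate 1, 3 without TIG1B replicate 1 and 0 to 2 without any other, and those in TIG1B cells 2 without control replicate 1. Over all probe sets, leaving out control replicate 1 gave 3009 and 1224 calls in place of 1818 and 535. Leaving out any other 1 array gave 282 to 1542 and 77 to 342.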

How the data were processed

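Per the labels and the study's methods, total RNA of 9 samples was hybridised to HG-U133 Plus 2.0 arrays, and the authors made 1 signal intensity per probe set with GeneChip Operating System 1.1.1, scaled globally to a target of 500. The deposited intensities are linear. The MFP dose is that of the labels and methods, since the series' design text gives another unit. Their trimmed mean was 500 on every array. Values were set to at least 1, log2 transformed and fitted over all 9 arrays with limma 3.58.1 in R 4.3.3 (lmFit, eBayes), with Benjamini-Hochberg adjustment over all 29977 probe sets at or above the array median (50th percentile) on at least 2 arrays of a group. Probe sets were named by GEO's platform annotation, updated by gene number through RefSeq (GRCh38.p14): 41091 had 1 symbol (41037 matched), 1801 several and 11721 none, and 62 controls were left out. The brightest probe set represented a gene. Detection calls, used by the authors as a filter, were not used here, and the number of arrays limits the precision. The study states independent samples, so replicates were treated as independent samples of 1 clone.

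Intensities on each array were given for genes with any kept probe set called at an adjusted p under 0.05, for the 5 genes of smallest p on the brightest probe set per comparison, the 3 brightest in control cells, and HNRNPL, and HNRNPLL was added as its paralogue. These 3 are the brightest by probe set reading, which does not rank transcripts. From other lists, up to 4 called genes per comparison were named. The genes and lists were chosen with earlier results of these data known. Alternatives were quantile normalisation, median centring, an offset of 50, a filter at the 75th percentile or none, only the 6 arrays compared, replicate number as a block, eBayes with trend and robust options, the methods' t-test and ANOVA with 2-fold change, other choices of probe set, and leaving out arrays. Promoters were RefSeq sequences, 1 per gene.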

Additional observations from a re-analysis of the deposited data

Results flagged for a closer look

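HNRNPUL2 differed between the TIG1A and TIG1B lines, each of them 1 clone, while neither passed the test against control (adjusted p = 0.0951 and 0.0712). Its brightest probe set (225405_at) was lower than control on all 3 TIG1A arrays and higher on all 3 TIG1B arrays, and the tested difference between the lines was -1.14 on the log2 scale (TIG1A minus TIG1B, limma adjusted p = 0.0302). The call held in 8 of 22 alternatives, with adjusted p from 0.00179 to 0.268. The other assigned HNRNPUL2 probe set gave -0.14 (limma adjusted p = 0.941). A further probe set that lists HNRNPUL2 beside a second gene was not assigned and not read. The medians of the 24 neighbouring genes were -0.21 in TIG1A and 0.34 in TIG1B cells.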

How the results depend on the processing

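No result changed direction among those called. The median log2 fold change of the 34 hnRNP and SR genes ranged from -0.39 to -0.09 in TIG1A cells, from -0.24 to 0.07 in TIG1B cells and from -0.17 to -0.08 between the lines, and in TIG1B cells its sign changed with median centring. HNRNPL 202072_at stayed called in TIG1A cells under all 22 alternatives (adjusted p up to 0.0467), and 35201_at under 20 of 22 (up to 0.0576). In TIG1B cells they stayed called under 13 and 9 of 22. HNRNPUL1 209675_s_at stayed called under 19 of 22 alternatives in TIG1A and 9 of 22 in TIG1B cells, and in TIG1A cells HNRNPD under 18, HNRNPDL under 11 and HNRNPH3 under 8 of 22 and PTBP2 under 9 of 21.

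Of the 34 genes, 1 was called in TIG1A cells, 1 in TIG1B cells and 1 between the lines. In that order, no filter gave 0, 0 and 0, and the methods' t-test 0, 0 and 0 after Benjamini-Hochberg adjustment and 7, 2 and 8 before. Of all 29977 probe sets, the t-test called 121, 6 and 66 after adjustment and 6150, 4594 and 4775 before. The mean over probe sets gave 5, 2 and 0, with 1064, 347 and 118 of all 13407 genes called. In TIG1A cells quantile normalisation gave 2, with 1882 of all probe sets called. The 75th percentile gave 5 and 3 in TIG1A and TIG1B cells, trend and robust options 4 and 3, and counting any probe set 6 and 2. Calls over all probe sets rose too, to 3601 and 1794 of 14825 at the 75th percentile. With trend and robust options they were 3571 and 1563 of 29977. In TIG1B cells and between the lines, median centring and the fit on 6 arrays gave 0 each, and ANOVA with 2-fold change gave 0 in TIG1B cells. Over all probe sets, median centring then called 356 and 53, and the fit on 6 arrays 15 and 2. ANOVA with 2-fold change called 1087 in TIG1B cells. Leaving out 1 array gave 1 to 5, 0 to 3 and 0 to 1, with 282 to 3009, 77 to 1224 and 0 to 167 over all probe sets. Leaving out both TIG1 arrays numbered 1, an alternative chosen after seeing the data, gave 0 in TIG1B cells and 0 between the lines. Over all probe sets it gave 18 and 0.

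Regulators (4 called in TIG1A and 1 in TIG1B cells) numbered 0 and 0 with no filter, 9 and 8 at the 75th percentile, 0 and 0 on 6 arrays, 7 and 8 with trend and robust options, 1 and 0 by the adjusted and 11 and 11 by the unadjusted t-test, 1 and 0 by ANOVA, 10 and 2 with any probe set, 1 in TIG1A cells with median centring, 2 and 3 in TIG1B cells with quantile normalisation and the offset, 0 to 8 and 0 to 5 leaving out 1 array, and 2 and 0 without both arrays numbered 1. Core components (4 and 0) numbered 0 in TIG1A cells with no filter, on 6 arrays and by the adjusted t-test, 2 by ANOVA, 1 without both arrays numbered 1, 8 and 3 at the 75th percentile, 8 and 4 with trend and robust options, 11 and 4 by the unadjusted t-test, 1 and 1 in TIG1B cells with the mean and with any probe set, and 0 to 9 and 0 to 2 leaving out 1 array. The cause of these shifts was not tested.

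With replicate number as a block, the 34 genes gave 1, 0 and 0 calls, regulators 1 and 0, core components 1 and 0, and the medians stayed at -0.25, -0.08 and -0.15. Over all probe sets the block gave 637, 2 and 0 calls in place of 1818, 535 and 125. The block ended the TIG1B calls of HNRNPL (adjusted p = 0.0848 and 0.0681) and HNRNPUL1 (0.0912), the TIG1A calls of HNRNPDL (0.0562), HNRNPH3 (0.0796) and PTBP2 (0.0501), and the HNRNPUL2 difference (0.115). Same-numbered arrays correlated at -0.04 to 0.19 and others at -0.13 to 0.09, and the numbers were not taken to pair the samples. Between TIG1A and TIG1B cells, the same-numbered arrays correlated at 0.192, 0.049 and 0.064. The arrays numbered 1 correlated at -0.126 to -0.104 with arrays 2 and 3 of the other line. An effect shared by both TIG1 arrays numbered 1 was not tested beyond leaving both out. No filter left 59, 11 and 0 calls over 54613 probe sets. With 3 arrays per group, small changes of dim probe sets could not be resolved.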
